A study of Mus musculus with 12 samples.

Results

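Replication-dependent histone genes were measured in mouse cells induced towards primordial germ cell-like cells (PGCLCs). The group holds the protein-coding GENCODE M21 genes whose symbols begin with Hist1h, Hist2h, Hist3h or Hist4h, and it counts 67 of the 35975 genes in the files. It comprises 6 genes for the linker histone H1, 18 for H2A, 18 for H2B, 12 for H3 and 13 for H4. On GRCm38, 54 of them lie on chromosome 13 between 21715763 and 23934851, 10 on chromosome 3 between 96219865 and 96270132, 2 on chromosome 11 and 1, Hist4h4, on chromosome 6. A filter on low counts passed 66 of the 67, and Hist1h4m did not pass.

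The cells were of the mouse embryonic stem line E14TG2a, either TKO or WT. The study's TKO line is known to lack the DNA methyltransferases Dnmt1, Dnmt3a and Dnmt3b in every TKO group, and the labels name no separate clones. Both genotypes were kept in medium with vitamin C, LIF and inhibitors of Gsk3 and MEK, and were then primed to epiblast-like cells. In TKO_40h, TKO_48h and TKO_96h the TKO cells were primed for 40, 48 and 96 h, and in WT_40h the WT cells for 40 h, so that priming beyond 40 h has no WT counterpart. All groups then spent 4 days as aggregates with BMP4, BMP8, SCF, EGF and LIF, and each has 3 biological replicates. Whether the RNA is of a sorted fraction or of entire aggregates is not given in the labels.

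Replication-dependent histone genes supply the core and linker histones that package newly copied DNA, and their mRNAs are made mainly in S phase. They lack introns, and their mRNAs end in a conserved stem-loop in place of a poly(A) tail. The stem-loop-binding protein Slbp binds that structure and takes part in processing, translation and decay of these mRNAs. Replication-independent variants such as H3.3 and H2A.Z come from other genes with polyadenylated mRNAs and are made through the whole cycle. The libraries here were made from total RNA, so mRNAs without a poly(A) tail were sampled too.

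The stem-loops are shown because they define the class. A search of the 3′ untranslated regions of the GENCODE M21 transcripts found the 16-base stem-loop in 46 of the 67 genes. It was found in the main transcript model of 45. The most frequent form was present in 26 genes, and the next forms in 7 and 6 genes. In the lines that follow, capitals mark the stem-loop on the transcript strand, and lower case the flanking bases.
Hist1h1c: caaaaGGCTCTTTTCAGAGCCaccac
Hist2h2aa1: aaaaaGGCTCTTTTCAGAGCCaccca
Hist2h2ac: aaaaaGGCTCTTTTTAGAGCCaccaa
Hist1h3e: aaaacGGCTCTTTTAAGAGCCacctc
Hist1h3d: ccaaaGGCTCTTTTCAGAGCCacccc
Hist1h4d: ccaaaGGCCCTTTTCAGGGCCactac
Hist2h4: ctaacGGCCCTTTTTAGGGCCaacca
Hist1h1c, the H2A gene Hist2h2aa1 and Hist1h3d carried the most frequent form. Hist2h2ac and Hist1h3e differed from it in the loop, and the H4 genes Hist1h4d and Hist2h4 carried another stem.

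RefSeq promoters on GRCm38.p6 matched 61 of the 67 members, and the 250 bases upstream of each start were searched on both strands. The CCAAT box (CCAAT) was found in 50 of 61 members (82%), against 33.8% of all 32851 promoters. All matched H1, H2A and H2B promoters held it, against 3 of 12 H4 promoters. The TATA box (TATAAA) was found in 29 of 61 (47.5%), against 12.4% of all promoters. The octamer (ATGCAAAT) was found in 7 of 17 H2A and 6 of 16 H2B promoters and in no H1, H3 or H4 promoter, against 1.6% of all promoters. The H1 box (AAACACA) was found in 5 of 6 H1 promoters, against 6.25% of all promoters. Matches of TATAAA can share bases with those of TTTATA or AAACACA. Hist2h2bb and Hist1h1b are printed because they recur in the results, and Hist1h4d as 1 of the 3 H4 promoters with a CCAAT box. Capitals mark these motifs on either strand.
Hist2h2bb, chr3:96269450-96269699 (+): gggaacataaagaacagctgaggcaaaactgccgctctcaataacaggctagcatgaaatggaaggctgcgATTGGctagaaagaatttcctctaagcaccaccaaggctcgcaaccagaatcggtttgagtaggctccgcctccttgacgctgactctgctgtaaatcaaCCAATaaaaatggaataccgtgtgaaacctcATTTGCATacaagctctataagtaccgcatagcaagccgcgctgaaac
Hist1h1b, chr13:21780626-21780875 (-): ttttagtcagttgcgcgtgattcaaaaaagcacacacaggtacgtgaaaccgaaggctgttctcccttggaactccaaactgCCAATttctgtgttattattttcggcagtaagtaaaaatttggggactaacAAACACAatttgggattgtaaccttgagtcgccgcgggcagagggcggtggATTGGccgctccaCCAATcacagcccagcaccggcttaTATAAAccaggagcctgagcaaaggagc
Hist1h4d, chr13:23581318-23581567 (+): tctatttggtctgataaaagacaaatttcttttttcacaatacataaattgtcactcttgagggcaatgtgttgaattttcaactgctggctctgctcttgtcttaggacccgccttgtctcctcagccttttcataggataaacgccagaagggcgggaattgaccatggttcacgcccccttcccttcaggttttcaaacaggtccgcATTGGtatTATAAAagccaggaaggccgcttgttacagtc
Hist2h2bb held the octamer and CCAAT boxes with no TATAAA, Hist1h1b the H1 box, CCAAT boxes and a TATA box, and Hist1h4d a CCAAT and a TATA box.

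The libraries held 6570180 to 9114128 estimated counts. Dnmt1 averaged 120 ± 8.62 CPM (counts scaled to library size) in TKO_40h and 439 ± 12 CPM in WT_40h (SD, n = 3 each). Dnmt3a averaged 64.3 ± 3.99 CPM in TKO_40h and 406 ± 41.5 CPM in WT_40h. Dnmt3b averaged 47.8 ± 8.27 CPM in TKO_40h and 185 ± 28.9 CPM in WT_40h. The labels did not go against these values, although reads outside a deleted stretch would still be counted. The 8 germ cell markers summed to 723, 855 and 954 CPM on average in TKO_40h, TKO_48h and TKO_96h and to 713 CPM in WT_40h. Of the 8, Prdm1, Tfap2c and Dppa3 were called lower in TKO_96h than in TKO_40h, with log2 fold changes of -1.01, -0.79 and -1.48. Pou5f1 was called higher at 0.60, with 794 ± 107 CPM in TKO_96h and 525 ± 20.5 CPM in TKO_40h, and it made up most of the sum. Kit, Prdm14, Dnd1 and Nanos3 had log2 differences of 0.32 to 0.81 that did not pass. Markers of 5 other cell types summed to at most 133 CPM in any library and type. The 4 neural markers summed to 128, 114 and 133 CPM in TKO_96h, against 80.7, 82 and 96 CPM in TKO_40h and 96.4, 104 and 112 CPM in WT_40h. Of the 4, the neuronal tubulin gene Tubb3 was highest in TKO_96h, at 51.3 ± 7.16 CPM against 19.2 ± 8.77 CPM in TKO_40h, while Sox1 and Pax6 were highest in WT_40h. The part of cell make-up in the histone values was not tested.

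TKO_96h replicate 1 stood above its group and TKO_48h replicate 2 below it in nearly every member. In TKO_96h replicate 1, 62 of 67 members lay above both other TKO_96h libraries, and their summed level was higher by 0.86 on the log2 scale than the mean of those libraries. In TKO_48h replicate 2, 61 of 67 members lay below both other TKO_48h libraries, and the sum was lower, at -0.77. TKO_48h replicate 1 also stood apart, with 56 of 67 members above both other TKO_48h libraries and the sum higher by 0.60. The summed level of 24 S-phase genes differed by 0.02 in TKO_96h replicate 1 and by -0.23 in TKO_48h replicate 2 on the same scale. Lars2 with Ccnb1ip1, which hold reads like those of ribosomal RNA, took 3.06% of counts in TKO_96h replicate 1 and 1.30 to 1.93% in the other libraries. Mitochondrial mRNA took 1.87% in that library and 1.08 to 1.59% in the others. Annotated ribosomal RNA took 1.78 to 2.15% in TKO_48h and 0.907 to 1.63% elsewhere. The part of these measures in the histone values was not tested.

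Members together took 0.716 to 2.01% of all counts. Their summed level was 10727, 10768 and 9582 CPM in TKO_40h, 12836, 6758 and 10225 CPM in TKO_48h, 20892, 11197 and 11777 CPM in TKO_96h, and 9103, 9948 and 10279 CPM in WT_40h. TKO_96h lay above TKO_40h in every library, and the other groups overlapped except where TKO_96h met WT_40h. The mean was 14622 ± 5438 CPM in TKO_96h and 10359 ± 673 CPM in TKO_40h (SD, n = 3 each), a log2 ratio of 0.50, which became 0.15 without TKO_96h replicate 1. TKO_48h averaged 9940 ± 3049 CPM, a log2 ratio of -0.06 to TKO_40h, which turned to 0.15 without TKO_48h replicate 2. TKO_40h had a log2 ratio of 0.08 to WT_40h, which averaged 9777 ± 607 CPM. In bulk RNA, a change in the share of cells in S phase and a change in histone mRNA per cell cannot be told apart. A sum over chosen genes was given no test.

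**Figure D1:**
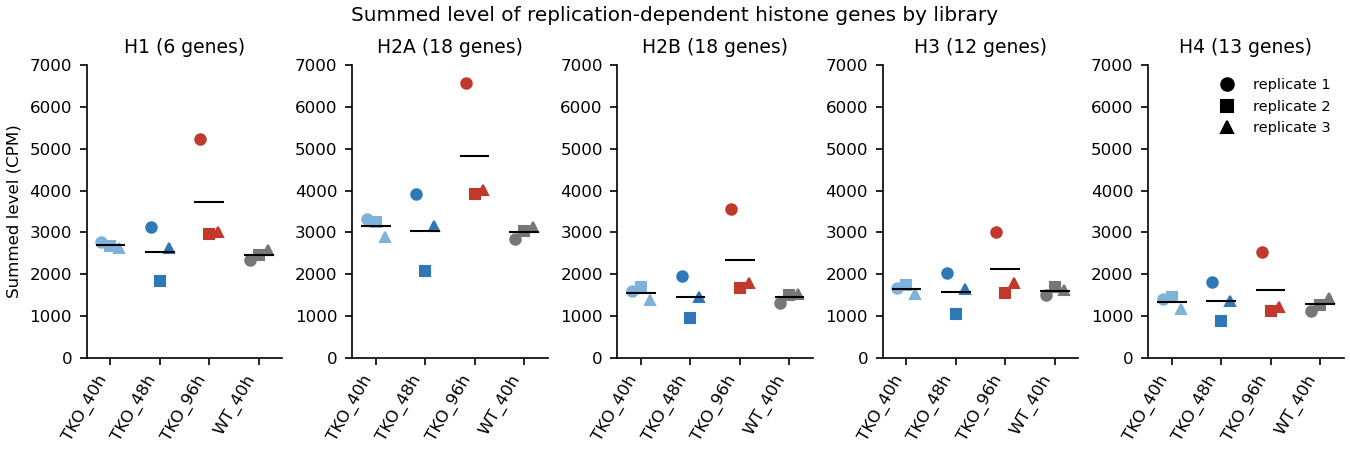
Summed level in CPM (vertical axis) of the H1, H2A, H2B, H3 and H4 genes in each library, with groups on the horizontal axis, 1 symbol per replicate and a line at the group mean. TKO_96h replicate 1 is the highest library in all 5 types and TKO_48h replicate 2 the lowest.

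H2A transcripts were the most abundant type in every library. H2A summed to 6567, 3928 and 4013 CPM in TKO_96h, against 3319, 3255 and 2877 CPM in TKO_40h, with no overlap. H1 summed to 5226, 2952 and 3001 CPM in TKO_96h, against 2769, 2660 and 2630 CPM in TKO_40h, again with no overlap. H2B averaged 2334 ± 1058 CPM in TKO_96h and 1548 ± 156 CPM in TKO_40h, and H3 2110 ± 787 CPM in TKO_96h and 1639 ± 102 CPM in TKO_40h. For H2B and H3 the groups overlapped. H4 summed to 2536, 1107 and 1203 CPM in TKO_96h, against 1396, 1440 and 1169 CPM in TKO_40h, so that the direction rested on replicate 1. Without it, the log2 ratio of TKO_96h to TKO_40h was 0.33 for H2A, 0.15 for H1, 0.16 for H2B, 0.02 for H3 and -0.21 for H4.

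Levels differed widely among members once divided by effective length. Over the 12 libraries Hist1h2ai, an H2A gene, had the highest mean, at 3410 CPM per kb. Hist1h2ap followed at 1750, Hist1h2ak at 1550 and Hist1h2ah at 1530 CPM per kb. Among H2B genes Hist1h2bk stood at 1320 and Hist2h2bb at 1240 CPM per kb, ahead of Hist1h2bg at 521 and Hist1h2bl at 475. Hist1h1a led the H1 genes at 865 CPM per kb, before Hist1h1b at 576, Hist1h1c at 488 and Hist1h1e at 276. Hist2h3b at 751 and Hist1h4k at 750 CPM per kb led the H3 and H4 genes. They were followed by Hist1h3i at 547, Hist1h3e at 449 and Hist1h3h at 414 for H3, and by Hist1h4h at 550, Hist1h4b at 538 and Hist1h4n at 536 for H4. The order per length depends on the transcript models. Before division Hist1h1d had the highest H1 mean, at 862 CPM, on a model of 7425 bases. Hist1h4d had the highest H4 mean, at 356 CPM, on a model of 1138 bases, while the Hist1h4k model has 312 bases. The 3 genes known for expression in testis were low, with Hist1h1t at 30.7, Hist1h2ba at 38.3 and Hist1h2aa at 97.4 CPM per kb. Hist1h4m had counts in 1 library only, TKO_96h replicate 1, at 0.854 CPM.

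**Figure D2:**
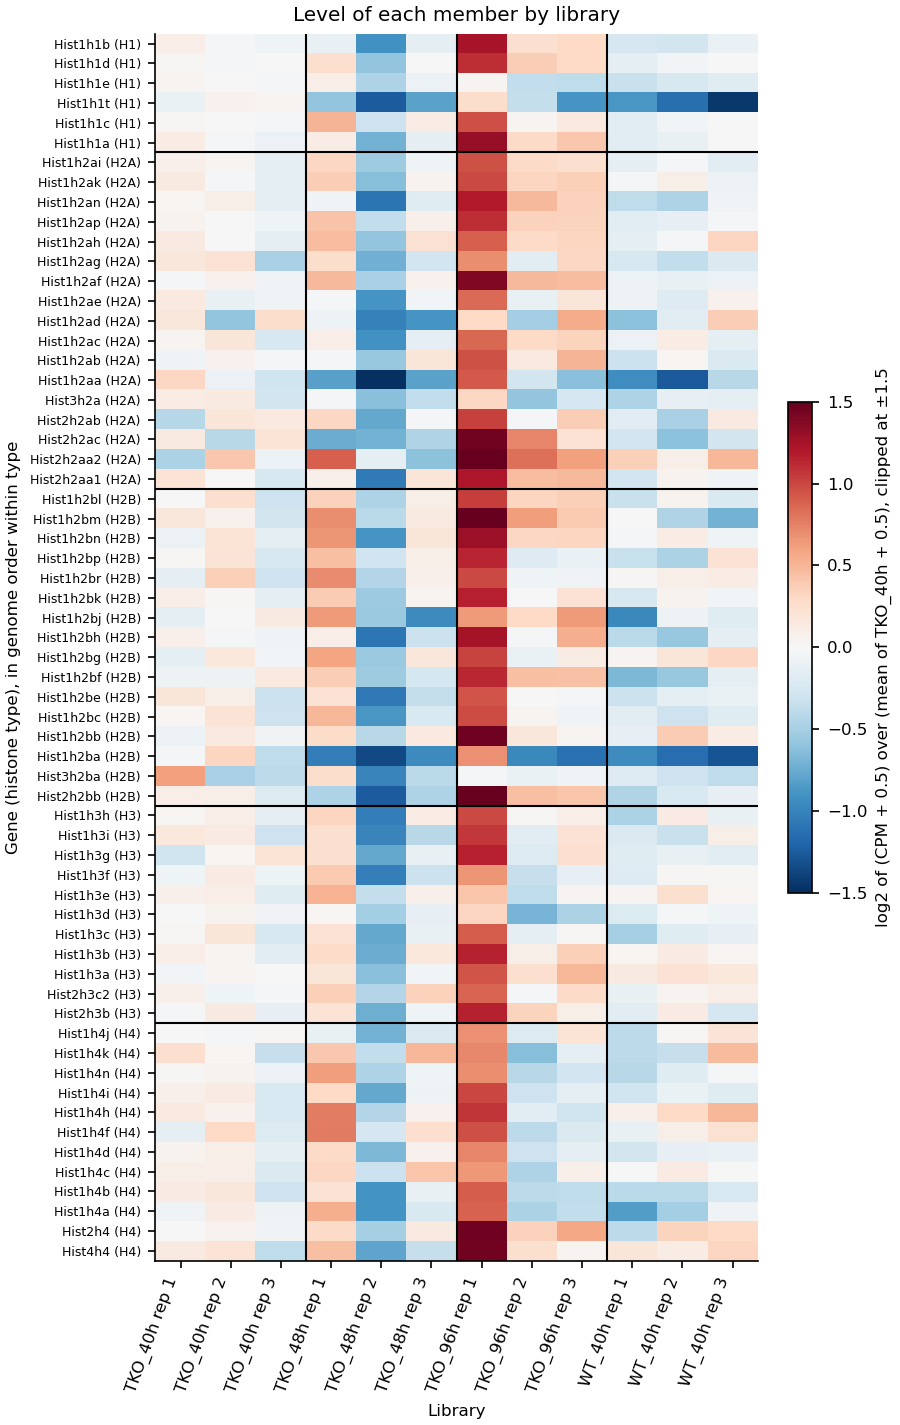
Level of 62 members with a mean of at least 5 CPM (rows, by type and genome order) in the 12 libraries (columns), as log2 of CPM plus 0.5 over the mean of TKO_40h plus 0.5. The column of TKO_96h replicate 1 is red and that of TKO_48h replicate 2 blue in nearly every row, while Hist1h1e and Hist1h3d differ in TKO_96h from the rows around them.

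Longer priming was compared first, by setting TKO_96h against TKO_40h. Of the 66 members tested, 16 rose and none fell, by edgeR's quasi-likelihood test at a Benjamini-Hochberg adjusted p below 0.05 over all genes tested. Of all 16178 genes tested, 12.1% were called, 4.94% higher and 7.2% lower in TKO_96h. The 16 were 8 H2A, 3 H1, 3 H2B, 1 H3 and 1 H4 genes. The median log2 fold change was 0.44 over members, against 0.00 over all genes tested, and 0.21 over H4 genes. In 23 members every TKO_96h library lay above every TKO_40h library, as did 15.2% of all genes tested.

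Hist1h2af, an H2A gene, had 596, 317 and 313 CPM in TKO_96h, against 224, 238 and 218 CPM in TKO_40h. Its log2 fold change was 0.85 ± 0.21 (SE, adjusted p = 0.011). Hist2h2bb, an H2B gene of the chromosome 3 cluster, had 750, 312 and 304 CPM in TKO_96h, against 245, 242 and 197 CPM in TKO_40h. It differed by 1.00 ± 0.26 (adjusted p = 0.014). In both genes replicate 1 was above the other TKO_96h libraries, and those still lay above TKO_40h. Hist2h2ac, an H2A gene of the same cluster, had 78.1, 47.7 and 33.2 CPM in TKO_96h, against 31.3, 21.2 and 32.8 CPM in TKO_40h, with a log2 fold change of 0.89 ± 0.25 (adjusted p = 0.02). Its lowest TKO_96h library was next to the highest TKO_40h one. Hist2h2aa2 had a log2 fold change of 1.09 ± 0.30 (adjusted p = 0.02). All of its 31-base words also occur in another gene, so its count depends on how reads were split.

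Among the members highest per length in their type, Hist1h1a rose by 0.74 ± 0.21, Hist1h2ap by 0.64 ± 0.18, Hist1h1b by 0.67 ± 0.21 and Hist1h2ak by 0.59 ± 0.19. Hist1h2ai, the highest of all, had a log2 difference of 0.53 that did not pass (edgeR adjusted p = 0.058). Hist1h2ah, Hist1h2bk, Hist2h3b and Hist1h1c did not pass either. Hist1h1a had 1070, 529 and 572 CPM in TKO_96h, against 466, 427 and 407 CPM in TKO_40h, without overlap. No member fell. Hist1h1e, an H1 gene, had 552, 414 and 412 CPM in TKO_96h, against 549, 533 and 523 CPM in TKO_40h, and its log2 difference of -0.22 did not pass. All 4 of the H4 genes highest per length had log2 differences of 0.09 to 0.34, none of which passed.

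The number of members called changed with the libraries kept. Without TKO_96h replicate 1, no member was called higher and 1, Hist1h3d, was called lower at -0.58. The median member difference was then 0.10. Log2 fold changes were then 0.48 for Hist1h2af, 0.43 for Hist2h2bb, 0.51 for Hist2h2ac, 0.73 for Hist2h2aa2, 0.35 for Hist1h1a, 0.34 for Hist1h2ap, 0.27 for Hist1h1b and 0.35 for Hist1h2ak. Without TKO_40h replicate 1, 2 or 3 the number of members called was 5, 4 and 1. With TKO_96h replicate 1 and TKO_48h replicate 2 both left out, an alternative chosen after seeing the data, 9 members rose and 2, Hist1h1e and Hist1h3d, fell. The 9 were Hist1h1a, Hist1h1b, Hist1h1d, Hist1h2af, Hist1h2ak, Hist1h2ap, Hist2h2aa1, Hist1h3a and Hist2h2bb. For the refits with libraries left out, all genes called are given only as a range, further below. The members' counts therefore have no background of their own refit beside them. Fewer libraries also weaken the test of every gene, so a lower count alone does not show dependence on the library left out. With an offset for effective length, 1 of the 66 members was called.

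**Figure D3:**
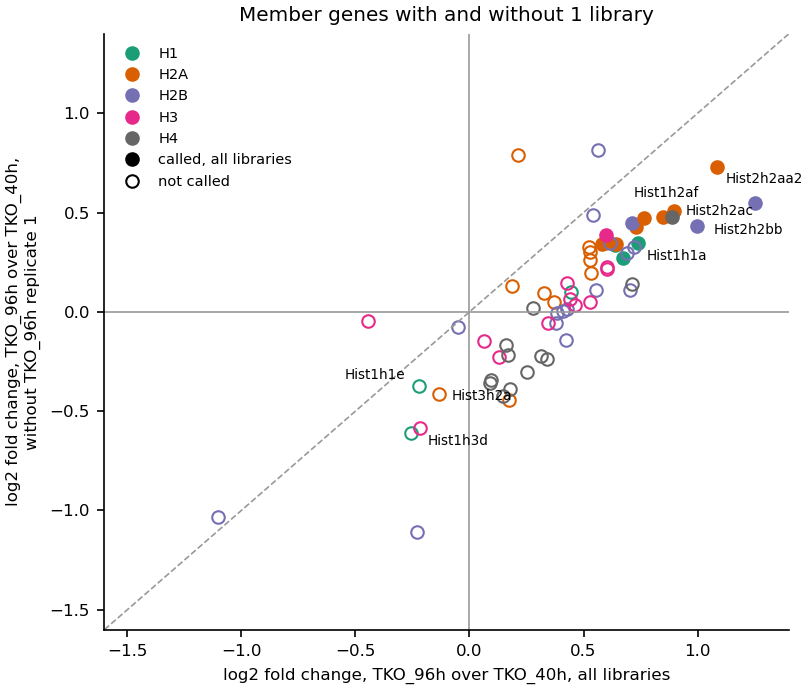
Log2 fold change of TKO_96h over TKO_40h for 66 members with all libraries (horizontal axis) and without TKO_96h replicate 1 (vertical axis), coloured by type, with filled points for the 16 called with all libraries. Most points lie below the dashed line of equality, the filled points stay above 0, and most H4 genes lie below 0 on the vertical axis.

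TKO_96h was next set against TKO_48h. Of 66 members 24 rose and none fell, where 19.5% of all genes tested were called, 8.82% higher and 10.7% lower. They were 12 H2A, 4 H2B, 3 H1, 3 H3 and 2 H4 genes. The median member difference was 0.62, against 0.01 over all genes tested. Hist2h2bb had 750, 312 and 304 CPM in TKO_96h, against 165, 95.8 and 165 CPM in TKO_48h, a log2 fold change of 1.68 ± 0.26 (adjusted p = 0.00014). Hist2h2ac had 78.1, 47.7 and 33.2 CPM in TKO_96h, against 16.8, 17.2 and 20.6 CPM in TKO_48h, a log2 fold change of 1.54 ± 0.25 (adjusted p = 0.00024). Hist1h2an rose by 1.11 ± 0.23 and Hist1h1b by 1.01 ± 0.21. In these 4 genes every TKO_96h library lay above every TKO_48h library, as it did in 12 members and in 15.6% of all genes tested. Without TKO_96h replicate 1 the 5 called members were Hist1h1a, Hist1h1b, Hist1h2an, Hist2h2ac and Hist2h2bb, all higher, at 0.55, 0.61, 0.80, 1.14 and 1.11 in that order, and the median member difference was 0.28. The number was 39, 12 and 15 without TKO_48h replicate 1, 2 and 3. With TKO_96h replicate 1 and TKO_48h replicate 2 both left out, 6 rose and 10 fell, and 7 of those 10 were H4 genes. That refit kept TKO_48h replicate 1, the TKO_48h library with the highest summed level, so the falls are relative to a group that holds it. The number of all genes called in these refits is not given here, so the members' counts have no background share beside them.

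Between TKO_48h and TKO_40h no member was called, where 5.49% of all genes tested were, 2.57% higher and 2.92% lower. At an unadjusted p below 0.05 there were 5 lower members and no higher one, and DESeq2 called 2. No matching counts over all genes are given here for that threshold or for DESeq2, so these counts have no background beside them. The median member difference was -0.12, and 0.11 without TKO_48h replicate 2. The 5 were Hist1h1t, Hist1h2aa, Hist1h2ba, Hist2h2bb and Hist2h2ac. Hist2h2bb had 165, 95.8 and 165 CPM in TKO_48h, against 245, 242 and 197 CPM in TKO_40h, with a log2 difference of -0.69 ± 0.26 (adjusted p = 0.14 by edgeR). In 7 members every TKO_48h library lay below every TKO_40h library, against 12.1% of all genes tested.

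The loss of the methyltransferases was examined in TKO_40h against WT_40h. Hist1h1t, the testis linker histone, was the 1 member of 66 that was called, where 3.1% of all genes tested were called, 1.62% higher and 1.48% lower. It had 29.6, 33.1 and 32.5 CPM in TKO_40h, against 17.1, 14.2 and 11.3 CPM in WT_40h. Its log2 fold change was 1.15 ± 0.26 (edgeR adjusted p = 0.018). The groups did not overlap. The call was lost without WT_40h replicate 2 or 3 and without any of the 3 TKO_40h libraries, and with an offset for effective length. The other testis genes lay above WT_40h in every TKO_40h library without passing. Hist1h2ba had 11.4, 14.6 and 8.78 CPM in TKO_40h, against 5.81, 4.96 and 4.42 CPM in WT_40h, a log2 difference of 1.19 ± 0.43 (adjusted p = 0.16). Hist1h2aa had 32.9, 24.9 and 21.3 CPM in TKO_40h, against 13.6, 10.7 and 19.6 CPM in WT_40h, a difference of 0.85 ± 0.35 (adjusted p = 0.24). All 3 were lower in TKO_48h than in TKO_40h, in every library, and none passed. In 8 members every TKO_40h library lay above every WT_40h one, against 13.1% of all genes tested. The median member difference was 0.10.

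Several proportions within a library set TKO_96h apart from the other groups, some by a narrow margin. The H4 to H2A ratio of summed CPM was 0.386, 0.282 and 0.3 in TKO_96h, against 0.421, 0.442 and 0.406 in TKO_40h. The lowest of all the other 9 libraries was WT_40h replicate 1, at 0.393. The H3 to H2A ratio was 0.458, 0.391 and 0.445 in TKO_96h, against 0.501, 0.531 and 0.531 in TKO_40h and 0.501 to 0.558 over the other 9 libraries. H4 held 12.1, 9.89 and 10.2% of histone counts in TKO_96h, against 13, 13.4 and 12.2% in TKO_40h. H1 to H2A was 0.796, 0.751 and 0.748 in TKO_96h, against 0.834, 0.817 and 0.914 in TKO_40h. The lowest of the other 9 libraries was TKO_48h replicate 1, at 0.801. The H2A share was 31.4, 35.1 and 34.1% in TKO_96h, against 30.9, 30.2 and 30% in TKO_40h and 31.3% in WT_40h replicate 1. Per length, the H2A share of TKO_96h overlapped all other groups and the H3 share overlapped TKO_48h. The H4 share per length, at 12.5, 9.84 and 10.5%, lay below all the other 9 libraries. These ratios share their libraries with the levels above and were given no test. The ratios to H2A also share their denominator and are not separate observations.

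**Figure D4:**
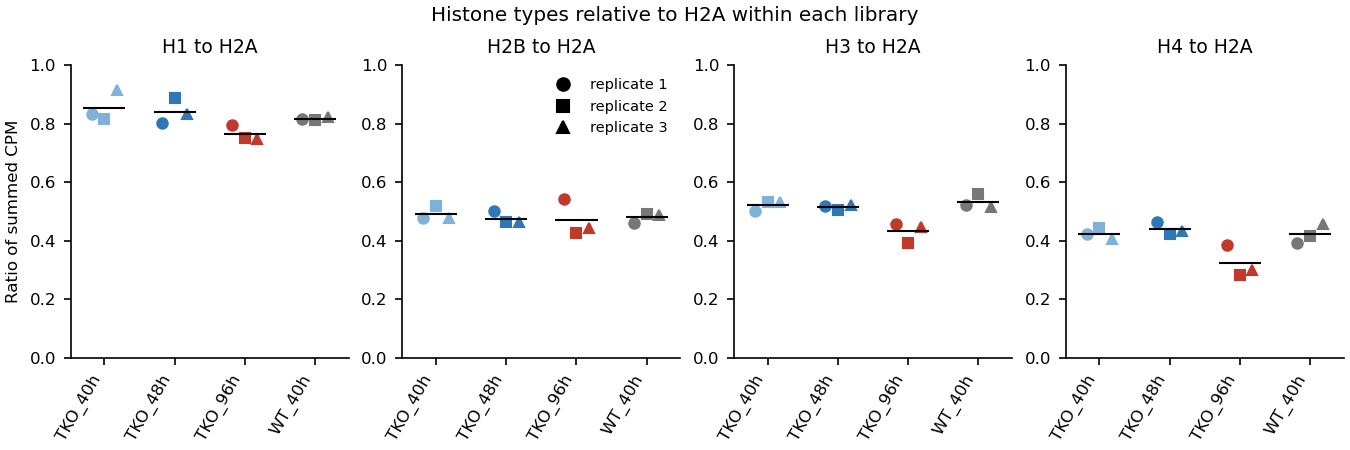
Ratio of the summed CPM of H1, H2B, H3 and H4 genes to that of H2A genes (vertical axis) in each library, by group (horizontal axis), 1 symbol per replicate and a line at the mean. The TKO_96h points are the lowest for H1, H3 and H4, while for H2B they spread on both sides of the other groups.

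Within a type, single genes shifted their share. The genes of this paragraph were chosen after their values were seen. Of the 67 members, 6 held a larger share of their type in every TKO_96h library than in all the other 9 libraries, 4 a smaller share, and 57 overlapped. No such count was made over other genes, so these counts have no background beside them. Shares within a type have a fixed total, so a smaller share of Hist1h1e raises those of the other H1 genes. Hist1h1e held 10.6, 14 and 13.7% of H1 counts in TKO_96h, against 19.8, 20 and 19.9% in TKO_40h. Hist1h1a held 20.5, 17.9 and 19.1% of H1 counts in TKO_96h, against 16.8, 16.1 and 15.5% in TKO_40h. Hist1h1b and Hist1h1d also held more, at 12.8 ± 0.874 and 32.4 ± 1.22% in TKO_96h and 11.3 ± 0.374 and 28.8 ± 0.56% in TKO_40h (SD, n = 3 each). Hist2h2bb held 21.1, 18.6 and 17.1% of H2B counts in TKO_96h, against 15.5, 14.4 and 14.3% in TKO_40h, and 8.44, 10.1 and 11.3% in TKO_48h. Hist1h3d held 5.37, 5.16 and 5.19% of H3 counts in TKO_96h, against 7.77, 7.77 and 8.13% in TKO_40h. Hist2h4 held 5.28 ± 0.365% of H4 counts in TKO_96h and 3.42 ± 0.276% in TKO_40h.

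Copies that resemble each other limit which gene a count belongs to. The median member shared 55.2% of its 31-base words with another gene, 37 of 67 shared over 50%, and 8 shared under 10%. Hist1h1a at 0.281%, Hist2h4 at 2.31%, Hist1h1b at 3.93% and Hist2h2bb at 7.98% were among the 8. Hist1h1e shared 34.7% and Hist1h3d 27.6%. The H2A pair Hist2h2aa1 and Hist2h2aa2, summed, had 1350, 791 and 768 CPM in TKO_96h, against 557, 583 and 465 CPM in TKO_40h, with no overlap. Hist1h2ao with Hist1h2ap had 997, 594 and 595 CPM in TKO_96h, against 483, 469 and 453 CPM in TKO_40h. Hist1h2bq with Hist1h2br had 267, 128 and 131 CPM in TKO_96h, against 127, 172 and 110 CPM in TKO_40h, and overlapped. In 9 members some words also lie antisense to another gene, and the strand setting of the quantification is not given in the sources used here.

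The transcript models of the members differ in how far they run past the stem-loop. In 21 members the model ended within 60 bases of it, at a median length of 482 bases, and 8 of 20 tested rose in TKO_96h against TKO_40h. In 24 members it ran on, at a median of 1194 bases, and 2 of 24 rose. The remaining models held no 3′ untranslated region, of which 4 of 13 rose, or no stem-loop in it, of which 2 of 9 rose. Median log2 fold changes were 0.57, 0.30, 0.53 and 0.53 in that order. Of all genes tested, 4.94% were called higher in that comparison. In TKO_96h against TKO_48h, 7 of 20, 6 of 24, 8 of 13 and 3 of 9 rose in the same order, against 8.82% of all genes tested. A difference between the classes was not tested. Hist1h1d has a GENCODE model of 7425 bases, against a RefSeq gene of 776 bases, so its level per length depends on the model used.

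Gene length moved with the library that stood apart. In TKO_96h replicate 1, the other protein-coding genes under 300 bases of effective length had a median log2 ratio of 0.69 to the other TKO_96h libraries, those from 300 to under 600 bases 0.52, and those of 2400 bases and over -0.14. Members stood at 0.93, 0.94 and 1.03 in the same classes. In TKO_48h replicate 2 the other genes stood at -0.44, -0.32 and 0.04, and the members at -0.82, -0.76 and -0.81. Members lay further from 0 than the other genes of their class in both libraries, which were shown because they stood apart. The class of 2400 bases and over held 2 members, Hist1h1d and Hist4h4, by their GENCODE models. Their RefSeq genes have 776 and 439 bases, so that class does not compare RNAs of like length. In TKO_96h replicate 3 members under 300 bases stood at -0.48 and the other genes at -0.44. The part of length in the member changes was not tested beyond the offset fit given above.

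**Figure D5:**
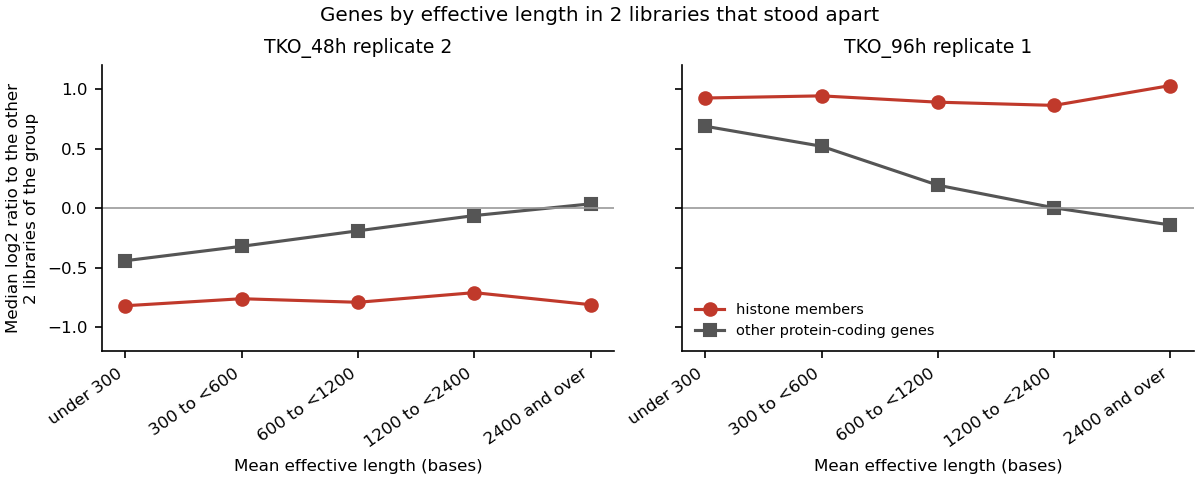
Median log2 ratio to the other 2 libraries of the group (vertical axis) for members and for other protein-coding genes, by class of effective length in bases (horizontal axis), in TKO_48h replicate 2 and TKO_96h replicate 1. The members keep a similar ratio in every class, and the other genes move towards and past 0 as length grows.

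Genes that act with these histones were measured from lists. Slbp had 129, 126 and 134 CPM in TKO_96h, against 102, 94.4 and 92.5 CPM in TKO_40h, and rose by 0.43 ± 0.12 (adjusted p = 0.018). It was the only 1 of the 13 genes of histone mRNA processing and transcription called in that comparison. Of 24 S-phase genes 10 rose and none fell. Rrm2, a subunit of ribonucleotide reductase, rose by 0.71, the helicase gene Mcm2 by 0.49 and Rrm1 by 0.50. Of 15 genes of G2 and mitosis none rose and 8 fell, with Mki67 at -0.92, the checkpoint kinase Bub1 at -0.78 and Top2a at -0.72. Of 11 histone chaperones 4 rose, namely the H3.3 chaperone Daxx at 0.73, Chaf1b at 0.49, Rbbp4 at 0.46 and Nap1l1 at 0.42. The 3 lists had medians of 0.40, -0.40 and 0.22, against 0.00 over all genes tested.

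Replication-independent histone genes moved in both directions, with 2 of 11 higher and 4 lower in TKO_96h than in TKO_40h. H2afj rose by 1.13 and H2afz, which encodes H2A.Z, by 0.80. H1f0 fell by 0.81 on the log2 scale and H1fx by 0.74. H2afz had 331, 213 and 245 CPM in TKO_96h, against 156, 154 and 145 CPM in TKO_40h. Members summed to 9.86, 6.6 and 6.77 times the level of these 11 genes in TKO_96h, against 5.62, 5.74 and 5.44 times in TKO_40h. Against the summed S-phase genes the ratio was 3.82, 2.04 and 2.21 in TKO_96h and 2.47, 2.6 and 2.28 in TKO_40h, so that without replicate 1 the members stood lower relative to S-phase genes in TKO_96h. In TKO_40h against WT_40h, 1 S-phase gene, Ccne1, and 2 mitotic genes, Ccnb1 and Cdc20, were higher.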

How the data were processed

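Per the labels, the 12 libraries were made from total RNA with a stranded SMARTer Pico Input kit. Per the submitters' processing notes, the authors trimmed reads with Trim Galore 0.6.2 and quantified them with kallisto against GRCm38 (mm10). For kallisto, the version, transcript set and strand setting were not given in the sources used here. The deposited estimated counts per transcript are not scaled to depth. The deposited TPM, made by the authors with kallisto, were not used.

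Of 119414 transcripts, 116728 matched GENCODE M21 by ID, and gene values are the sums of their estimated counts. The sums were rounded for the tests and left unrounded for the levels in CPM. Unmatched transcripts were left out. filterByExpr (minimum count 10, minimum total 15) kept 16178 genes. edgeR 4.0.16 was fitted by quasi-likelihood to the 12 libraries, 1 mean per group. TMM factors ran from 0.927 to 1.063 and the biological coefficient of variation was 0.241. Tests were two-sided, adjusted by Benjamini-Hochberg over all genes tested, with 0.05 as the threshold. The fit was tested on simulated data. CPM use TMM library sizes. Per-length levels are CPM divided, in each library, by the gene's mean effective length in that library. Effective lengths are deposited in bases. The pairing check and the length classes used a pseudocount of 0.5, and the classes hold genes averaging 10 CPM or more.

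Alternatives were no filter, DESeq2 1.42.0, other scaling and designs, an effective length offset and each library left out. Members, lists and tests were chosen with earlier results of these data known. Named members are the 4 of highest per-length level in each type, up to 4 called in each direction per comparison, and 3 testis genes. Others were chosen after their values were seen. Software was R 4.3.3, Python 3.11.15, numpy 2.4.6, pandas 2.3.3 and matplotlib 3.10.9. Protein sequences and other days of the differentiation were not used here.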

Additional observations from a re-analysis of the deposited data

How the results depend on the processing

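Of 582 values recomputed under alternatives, 480 kept their direction and their side of the threshold or stayed within the limits set for counts and sums. Among values of the headline results, 90 were classed as the same, 32 as weaker, 13 as stronger, 2 as reversed and 1 as moved. Among the other values, 390 were classed as the same, 27 as weaker, 13 as stronger, 5 as reversed and 9 as moved. With no filter on low counts, 3, 5, 37 and 46 members were called in TKO_40h against WT_40h, TKO_48h against TKO_40h, TKO_96h against TKO_40h and TKO_96h against TKO_48h, and 787 genes in the comparison with WT_40h. DESeq2 called 2 members in TKO_48h against TKO_40h, 9 in TKO_96h against TKO_40h, and 785 genes in TKO_40h against WT_40h. With an offset for effective length the members called were 0 in TKO_40h against WT_40h, 1 in TKO_96h against TKO_40h and 10 in TKO_96h against TKO_48h. All genes called then numbered 78, 203, 827 and 1638 in the 4 comparisons. Fitting only the 2 groups compared gave 4 members and 1279 genes in TKO_40h against WT_40h, 1 member in TKO_48h against TKO_40h and 13 members in TKO_96h against TKO_48h. Where no count of all genes is given for a fit and comparison, the members' count has no background beside it. The cause of these shifts was not tested.

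With each library left out in turn, and with TKO_96h replicate 1 and TKO_48h replicate 2 left out together, members called ranged from 0 to 1 in TKO_40h against WT_40h and in TKO_48h against TKO_40h, from 1 to 24 in TKO_96h against TKO_40h, and from 5 to 39 in TKO_96h against TKO_48h. All genes called ranged from 181 to 217 in TKO_40h against WT_40h, from 324 to 1107 in TKO_48h against TKO_40h and from 1210 to 1790 in TKO_96h against TKO_40h. No range of all genes is given for TKO_96h against TKO_48h. Without TKO_96h replicate 1 the called member of TKO_96h against TKO_40h was lower. Without both, 16 members were called in TKO_96h against TKO_48h, most of them lower. The summed log2 ratio of TKO_96h to TKO_48h ranged from -0.0055 to 0.784. For TKO_96h against TKO_40h the log2 fold change ranged from -1.11 to 0.10 for Hist1h2ba, with 0.05 without TKO_96h replicate 2, and from -0.44 to 0.46 for Hist1h2aa. For TKO_96h against TKO_48h it ranged from -0.0333 to 1.29 for Hist1h2ba.

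Correlations of the deviations of same-numbered libraries ran from -0.03 to 0.12 over 18 pairs, so not every pair passed the limit of 0.1 set for a pairing. Replicates 1 and 2 of TKO_48h and TKO_96h did, at 0.115 and 0.101, and their members deviated alike, by 0.60 and 0.86 in replicate 1 of TKO_48h and TKO_96h and by -0.77 and -0.55 in replicate 2. The replicate block gave 2 called members in TKO_48h against TKO_40h. Its count for TKO_96h against TKO_48h is not given here, so the calls of that comparison stand without the pairing. Depth limits what can be said of Hist1h4m and the testis genes, whose levels are low.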
